A study of Mus musculus with 24 samples.

Results

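The genes described here are the 10 that carry out antigen presentation by class II molecules of the major histocompatibility complex (MHC) in mouse: H2-Aa, H2-Ab1, H2-Eb1, Cd74, Ciita, H2-DMa, H2-DMb1, H2-DMb2, H2-Oa and H2-Ob. They were taken by symbol from the table of raw exon counts, which holds 24506 genes, and all 10 were found. Levels were read in 14 RNA libraries of fetal liver pro-B cells on the C57BL6/J background, expanded over OP9 stromal cells in interleukin-7, FLT3 ligand and KIT ligand. Each of 7 groups had 2 libraries. Cells lacking Ebf1 (Ebf1-KO) carried the retroviral vector pMiG with Pax5, with Ebf1 or empty; cells lacking Pax5 (Pax5-KO) carried pMiG with Pax5, with Ebf1 or empty; and wild-type cells carried empty pMiG. All groups, wild type included, therefore share the vector backbone, the stroma and the cytokines. EBF1 binding was read from 1 peak list of the Abelson-transformed mouse pre-B line 230-238, a different cell from those of the RNA libraries and a single line. The age of the fetuses, and whether 2 libraries of a group came from separate cultures, were not given in the sources used here, so p-values measure the spread between these libraries, which may be technical.

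Class II molecules display peptides from endocytosed protein to CD4 T cells. An alpha and a beta chain pair in the endoplasmic reticulum with the invariant chain, encoded by Cd74, which blocks the peptide groove and directs the complex to endosomes. There H2-DM exchanges the last fragment of the invariant chain for peptide, and H2-DO, found mainly in B cells, restrains H2-DM. CIITA, encoded by Ciita, is a coactivator that binds no DNA itself and is held at class II promoters by the factors on their X and Y boxes. B cells, dendritic cells and macrophages are the classical presenting cells, and mouse B-lineage cells gain most of their surface class II after the pro-B stage.

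Of the 10 genes, 8 lie within 224 kb of the MHC on chromosome 17, at chr17:34092379-34316674 of mm10 (GRCm38). Ciita lies at chr16:10488178-10527640. RefSeq promoter sequences of GRCm38.p6, covering 250 bases before to 50 bases after each start, were matched for 7 genes through 8 promoters; H2-Ab1, Cd74 and Ciita were not matched. The windows below run from the X box core, searched as CNNNNAAC, to the Y box core, searched as GATTGG, which holds CCAAT read on the other strand. They are printed because they are the feature that these promoters share with each other, and capitals mark the cores.

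H2-Aa: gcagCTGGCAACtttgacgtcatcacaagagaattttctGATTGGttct
H2-Eb1: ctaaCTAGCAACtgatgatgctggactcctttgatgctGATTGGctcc
H2-DMb1: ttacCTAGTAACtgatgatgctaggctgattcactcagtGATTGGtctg
H2-DMb2: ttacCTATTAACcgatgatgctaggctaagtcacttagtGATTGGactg
H2-Oa: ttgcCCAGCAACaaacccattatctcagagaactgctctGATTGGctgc
H2-Ob: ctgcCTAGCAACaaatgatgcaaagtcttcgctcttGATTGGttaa

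The H2-Aa window is chr17:34287863-34287911 on the minus strand. The others are on the plus strand: H2-Eb1 at chr17:34305769-34305816, H2-DMb1 at chr17:34153090-34153138, H2-DMb2 at chr17:34145119-34145167, H2-Oa at chr17:34092296-34092344 and H2-Ob at chr17:34238811-34238856. The start of the Y core lay 32 bases after the start of the X core in H2-Ob, 34 in H2-Eb1 and 35 in the other four. Searched on both strands and in order, an X core followed by a Y core 30 to 37 bases on was present in 6 of the 8 matched promoters, against 139 of 32851 promoters in the table (0.423%). Taken alone, GATTGG was in 16.1% of all promoters and CNNNNAAC in 81.6%, so the pair at this spacing was much rarer than either core. The pattern was chosen with these sequences in view, and a match describes letters and shows no binding. H2-DMa held both cores, but not at this spacing. H2-Aa alone of the matched members held the full cyclic AMP element TGACGTCA, which 1.79% of all promoters hold and which in H2-Aa overlaps the stretch between the cores.

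Libraries held 16.1 to 42.1 M exon counts. Values are CPM, the counts scaled to a common library size after TMM scaling. Replicates correlated least in Pax5-KO with Ebf1, at a Pearson r of 0.895 on log2 CPM, against 0.934 to 0.971 in the other groups. In that group replicate 1 had 0 counts for H2-Aa, H2-Ab1, H2-Eb1 and H2-Ob, where replicate 2 had 361, 84, 13 and 127, so values of the group are given by library. Of the genes knocked out, Ebf1 had 243.9 and 282.0 CPM over its exons in Ebf1-KO with empty vector and 966.1 and 1102.1 CPM in wild type, so its row is not at 0 in the knockout. Ebf1 was below wild type in Pax5-KO too, at 315.4 and 241.2 CPM with empty vector and 487.7 and 589.1 CPM with Pax5. In Ebf1-KO with Pax5 it had 252.0 and 256.2 CPM. With the Ebf1 vector, Ebf1 reached 856.9 and 893.0 CPM in Ebf1-KO and 1643.5 and 1482.7 CPM in Pax5-KO. Pax5 had 20.1 and 12.3 CPM in Pax5-KO with empty vector. With the Pax5 vector, Pax5 reached 399.1 to 429.3 CPM in Ebf1-KO and 439.6 to 746.2 CPM in Pax5-KO, against 332.8 to 411.9 CPM in wild type. The 12 pro-B markers summed to 308.4 and 335.1 CPM in Ebf1-KO and 1254.6 and 1407.2 CPM in Pax5-KO, both with empty vector, against 5286.8 and 4834.4 CPM in wild type, so the label of pro-B cell is borne by its markers least in Ebf1-KO.

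**Figure D1:**
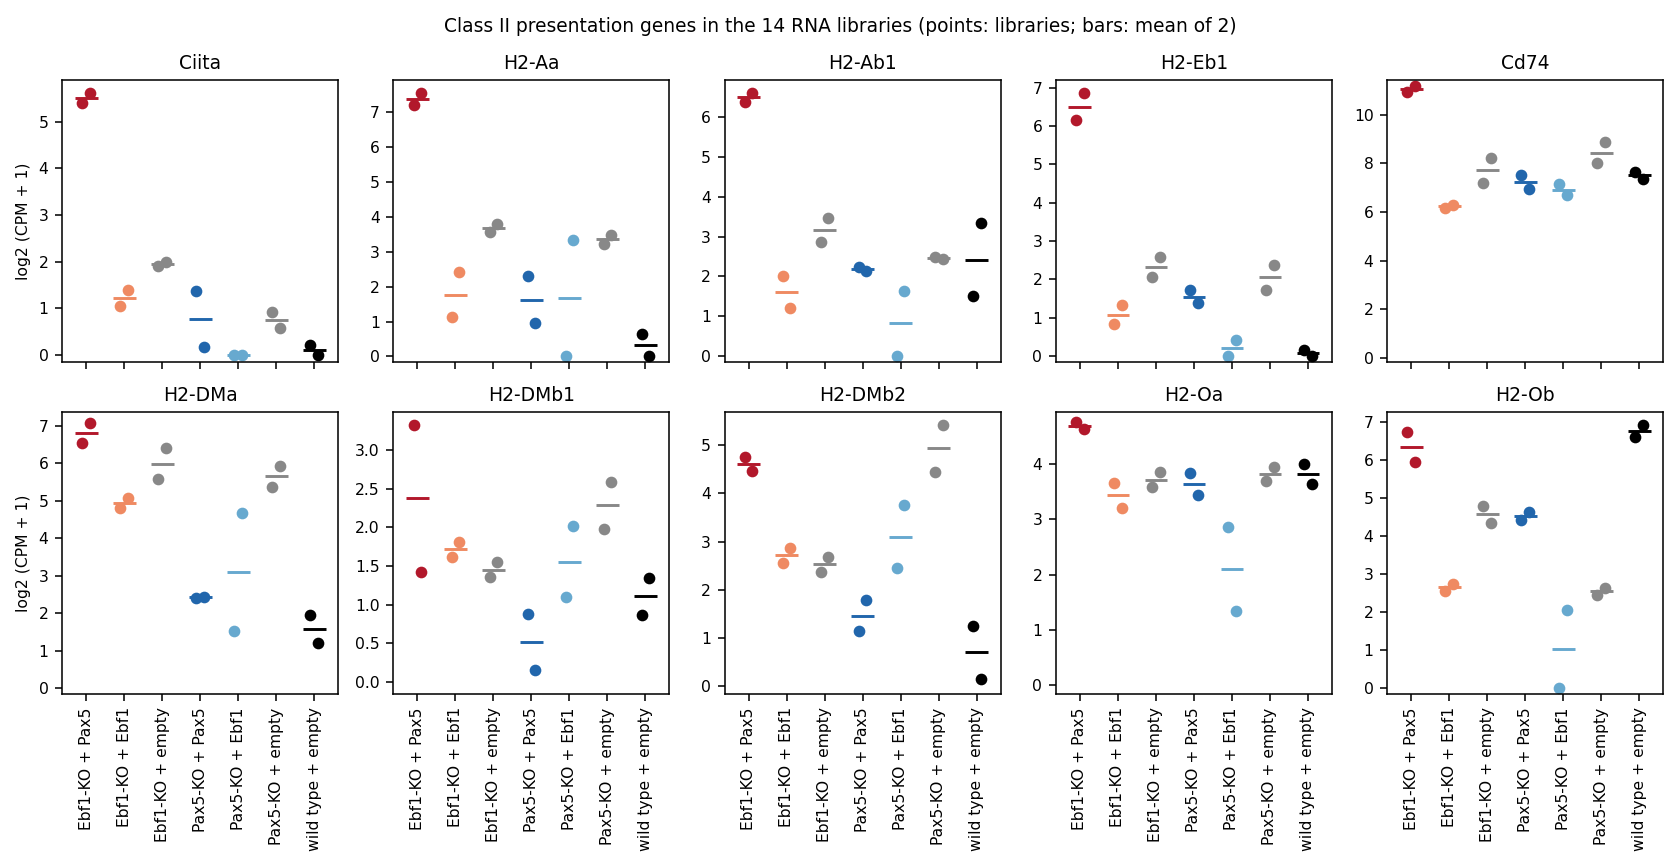
Levels of the 10 class II presentation genes in each library, as log2 (CPM + 1) on the vertical axis, with groups along the horizontal axis; points are libraries and bars the mean of 2. Ebf1-KO with Pax5 has the highest mean for 8 of the 10 genes. The mean of H2-DMb2 is highest in Pax5-KO with empty vector and that of H2-Ob in wild type, both overlapping Ebf1-KO with Pax5.

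All 10 genes passed the filter on low counts, and each would have passed it without its highest group. Ciita, the coactivator on which class II transcription depends, had 41.1 and 47.9 CPM in Ebf1-KO with Pax5, 1.06 and 1.63 in Ebf1-KO with Ebf1, then 2.75 and 2.97 with the vector empty. It had 1.58 and 0.113 CPM in Pax5-KO with Pax5, 0 in both libraries of Pax5-KO with Ebf1, 0.901 and 0.497 in Pax5-KO with empty vector, and 0.155 and 0 in wild type. Wild type rested on 3 counts in all and Pax5-KO with Ebf1 on none. Ebf1-KO with Pax5 stood apart above Ebf1-KO with empty vector, and that group above the rest. Ebf1-KO with Ebf1 lay above Pax5-KO with empty vector, which lay above both wild type and Pax5-KO with Ebf1. Pax5-KO with Pax5 overlapped Ebf1-KO with Ebf1, Pax5-KO with empty vector and wild type.

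H2-Aa encodes the alpha chain of the A molecule. It had 148.8 and 186.0 CPM in Ebf1-KO with Pax5, 1.2 and 4.31 in Ebf1-KO with Ebf1, then 10.8 and 13 with the vector empty. It had 3.96 and 0.934 CPM in Pax5-KO with Pax5, 0 and 9.07 in Pax5-KO with Ebf1, 8.34 and 10.3 in Pax5-KO with empty vector, and 0.57 and 0 in wild type. Every one of the 6 knockout groups had a library above both wild-type libraries, and wild type was the lowest group. H2-Ab1, the beta chain that pairs with it, had 83.3 and 96.2 CPM in Ebf1-KO with Pax5, 2.99 and 1.31 in Ebf1-KO with Ebf1, then 6.22 and 10 with the vector empty. It had 3.73 and 3.37 CPM in Pax5-KO with Pax5, 0 and 2.11 in Pax5-KO with Ebf1, 4.6 and 4.36 in Pax5-KO with empty vector, and 1.81 and 9.1 in wild type. Below Ebf1-KO with Pax5 its groups were not ordered like those of H2-Aa, since wild type overlapped both empty-vector knockouts.

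H2-Eb1, the beta chain of the E molecule, had 70.6 and 114.6 CPM in Ebf1-KO with Pax5, 0.771 and 1.51 in Ebf1-KO with Ebf1, then 3.16 and 4.97 with the vector empty. It had 2.28 and 1.61 CPM in Pax5-KO with Pax5, 0 and 0.327 in Pax5-KO with Ebf1, 2.32 and 4.18 in Pax5-KO with empty vector, and 0.104 and 0 in wild type, which rested on 2 counts. C57BL/6 mice lack a working alpha chain for the E molecule, and H2-Ea-ps had at most 1 count in any library. H2-Eb2 stayed at or under 1.68 CPM; these last 2 genes are outside the 10 and were chosen after their values were seen.

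Cd74, at chr18:60803849-60812652, had the highest mean level per kilobase of the 10 in every group. It had 1974.2 and 2306.8 CPM in Ebf1-KO with Pax5, 71.5 and 77 in Ebf1-KO with Ebf1, then 147.4 and 298.5 with the vector empty. It had 182.7 and 123.0 CPM in Pax5-KO with Pax5, 141.5 and 102.2 in Pax5-KO with Ebf1, 258.6 and 470.0 in Pax5-KO with empty vector, and 202.2 and 161.8 in wild type. Unlike H2-Aa or Ciita it was well expressed in wild type. Wild type overlapped Ebf1-KO with empty vector and Pax5-KO with Pax5. Per kilobase of exon, mean Cd74 in Ebf1-KO with Pax5 was 1524.6 CPM per kb, against 157.7 for H2-Aa, 75.7 for H2-Ab1, 55.7 for H2-Eb1 and 8.38 for Ciita. Cd74 made up 76.6 and 77.1% of the summed CPM of the 10 genes there, against 62.7 and 53.1% in wild type.

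H2-DMa, the alpha chain of the exchange factor H2-DM, had 92.5 and 132.4 CPM in Ebf1-KO with Pax5, 26.7 and 32.8 in Ebf1-KO with Ebf1, then 46.6 and 83.6 with the vector empty. It had 4.28 and 4.42 CPM in Pax5-KO with Pax5, 1.86 and 24.5 in Pax5-KO with Ebf1, 39.9 and 60 in Pax5-KO with empty vector, and 2.85 and 1.32 in wild type. Only Pax5-KO with Ebf1, through its replicate 1, overlapped wild type. H2-DMb2, one of the beta chains, had 25.8 and 21.1 CPM in Ebf1-KO with Pax5, 4.92 and 6.33 in Ebf1-KO with Ebf1, then 4.21 and 5.39 with the vector empty. It had 1.21 and 2.46 CPM in Pax5-KO with Pax5, 4.45 and 12.5 in Pax5-KO with Ebf1, 20.8 and 41.7 in Pax5-KO with empty vector, and 1.4 and 0.114 in wild type. H2-DMb1, the other beta chain, was low throughout, from 0.113 CPM in Pax5-KO with Pax5 replicate 2 to 9.05 CPM in Ebf1-KO with Pax5 replicate 1, and several neighbouring groups in its order overlapped. It had 1.14 and 3.06 CPM in Pax5-KO with Ebf1. H2-DMb1 and H2-DMb2 are close copies, so the counting may have split reads between them and each value is uncertain.

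H2-Oa and H2-Ob encode the chains of H2-DO, and they did not follow each other. H2-Oa had 26.1 and 23.7 CPM in Ebf1-KO with Pax5 and 6.25 and 1.53 CPM in Pax5-KO with Ebf1; the other 5 groups lay between 8.27 and 15 CPM and overlapped their neighbours. H2-Ob had 105.0 and 60.4 CPM in Ebf1-KO with Pax5, 4.92 and 5.73 in Ebf1-KO with Ebf1, then 26.7 and 19.4 with the vector empty. It had 20.4 and 23.9 CPM in Pax5-KO with Pax5, 0 and 3.19 in Pax5-KO with Ebf1, 4.46 and 5.26 in Pax5-KO with empty vector, and 97.3 and 119.4 in wild type. H2-Ob was thus the 1 gene of the 10 whose wild-type mean was its highest, though wild type overlapped Ebf1-KO with Pax5. The span of H2-Oa overlaps that of BC051537, and the span of Cd74 that of Mir5107. Overlap of exons was not checked, and counts there may be shared.

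The first comparison asks what class II genes do when Pax5, which needs EBF1 for its own expression, is supplied to cells without Ebf1. In Ebf1-KO cells the Pax5 vector raised Cd74, H2-Eb1 and Ciita, and 9 of the 10 genes had both Pax5 libraries above both empty-vector libraries, the exception being H2-DMb1. Summed over the 10 genes, levels were 2576.5 and 2990.7 CPM with Pax5, against 260.4 and 453.2 CPM with empty vector. Of the 10 genes 3 were called higher and 0 lower (edgeR quasi-likelihood test, Benjamini-Hochberg adjusted p under 0.05). Across all 14550 genes tested, 4.08% were called, 3.15% higher and 0.935% lower. Of all calls 77.1% were higher, and 66.5% were under upper-quartile scaling. The median log2 fold change was 2.77 over the 10 genes and -0.01 over all genes tested.

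Cd74 rose by a log2 fold change of 3.26 ± 0.36 (SE), with an adjusted p of 9.6e-05. Its differences in log2 CPM were 3.74 in replicate 1 and 2.95 in replicate 2, and replicate number coincides with a run tag in the column names. H2-Eb1 rose by 4.51 ± 0.72 (adjusted p = 0.00211), with differences of 4.45 and 4.51. Ciita rose by 3.96 ± 0.97 (adjusted p = 0.0352), with differences of 3.87 and 3.98. The other peptide-binding chains had log2 fold changes of like size that did not pass: H2-Aa differed by 3.81 ± 1.17 (adjusted p = 0.0901) and H2-Ab1 by 3.46 ± 0.95 (adjusted p = 0.0567). H2-DMb2 differed by 2.29 ± 0.75 (adjusted p = 0.121) and H2-Ob by 1.84 ± 0.72 (adjusted p = 0.199). H2-DMa, already at 46.6 and 83.6 CPM with empty vector, had an adjusted p of 0.656, and H2-DMb1 and H2-Oa had 0.508 and 0.372. With both libraries of Pax5-KO with Ebf1 left out of the fit, a choice made after seeing the data, 7 of the 10 were called higher, adding H2-Aa (adjusted p = 0.00273), H2-Ab1 (0.00252), H2-DMb2 (0.0453) and H2-Ob (0.00119). The call of Cd74 held without any 1 of the 4 libraries; that of H2-Eb1 was lost without Ebf1-KO with empty vector replicate 1 (adjusted p = 0.0558), and that of Ciita without any 1 of the 4 (adjusted p = 0.0979 to 0.286).

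The second comparison sets the knockouts against wild type, all with empty vector. Loss of either factor went with higher H2-Aa, H2-Eb1, H2-DMa and H2-DMb2, from wild-type levels at or near 0 for the first 2. In Ebf1-KO 5 of the 10 genes were called higher and 0 lower, where 14.7% of all genes tested were called, 8.02% higher and 6.65% lower. In Pax5-KO 4 were called higher and 1 lower, where 13.6% of genes tested were called, 8.65% higher and 5% lower. Median log2 fold changes over the 10 genes were 1.61 in Ebf1-KO and 2.39 in Pax5-KO, against 0.03 and 0.04 over all genes tested. These 2 comparisons share the wild-type libraries.

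**Figure D2:**
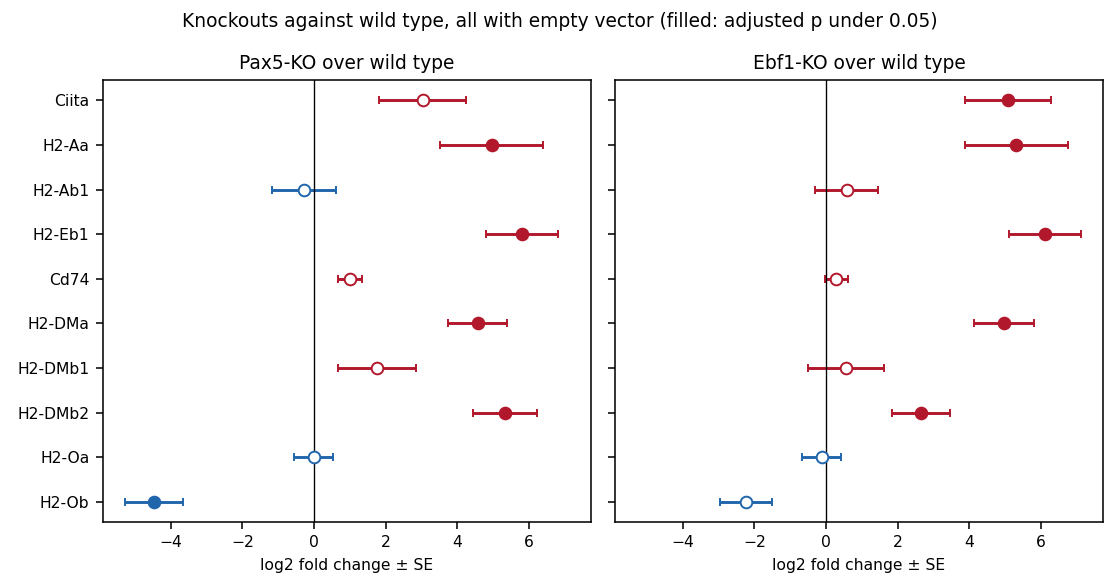
Log2 fold changes (horizontal axis, with SE) of the 10 genes in Pax5-KO and in Ebf1-KO over wild type, all with empty vector; filled points had an adjusted p under 0.05. H2-Aa, H2-Eb1, H2-DMa and H2-DMb2 are filled and positive in both panels, and H2-Ob lies at -4.47 in Pax5-KO and -2.23 in Ebf1-KO; fitted values of H2-Eb1 and Ciita rest on 2 and 3 counts in wild type.

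Among the peptide-binding chains, H2-Aa rose by 5.31 ± 1.44 in Ebf1-KO (adjusted p = 0.021) and by 4.96 ± 1.43 in Pax5-KO (adjusted p = 0.0318), on the log2 scale. H2-Eb1 had 213 counts in Ebf1-KO, against 2 in wild type, a ratio of 77.1 after scaling (95% counting interval 21.1 to 640.7). It had 192 counts in Pax5-KO, against the same 2, a ratio of 63.9 (17.4 to 531.2); adjusted p were 5.8e-04 and 0.00108. H2-Ab1 was not called in either knockout (adjusted p = 0.749 for Ebf1-KO, 0.884 for Pax5-KO), and its wild-type libraries differed from each other by more than those of either knockout. Ciita had 146 counts in Ebf1-KO, against 3 in wild type, a ratio of 35.2 (11.8 to 172.8; adjusted p = 0.0103). In Pax5-KO it had 36 counts, a ratio of 7.98 (2.52 to 40.5), and was not called (adjusted p = 0.128).

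H2-DMa rose by 4.96 ± 0.84 in Ebf1-KO (adjusted p = 7.8e-04) and by 4.57 ± 0.83 in Pax5-KO (adjusted p = 0.00158). H2-DMb2 rose by 2.64 ± 0.81 in Ebf1-KO (adjusted p = 0.0403) and by 5.34 ± 0.89 in Pax5-KO (adjusted p = 7.5e-04). The invariant chain did not follow: Cd74 had an adjusted p of 0.647 in Ebf1-KO, and in Pax5-KO it differed by 1.00 ± 0.33 (adjusted p = 0.062). H2-Ob went the other way, and fell by 4.47 on the log2 scale in Pax5-KO (SE 0.81, adjusted p = 0.00157). In Ebf1-KO it differed by -2.23 ± 0.73 (adjusted p = 0.0544), and was called when the Pax5-KO with Ebf1 libraries were left out (adjusted p = 5.2e-05). Without wild type replicate 2, calls were lost for H2-Aa (adjusted p = 0.159), Ciita (0.0912) and H2-DMb2 (0.231) in Ebf1-KO and for H2-Aa in Pax5-KO (0.212). H2-DMb2 in Ebf1-KO was also lost without Ebf1-KO replicate 1 (0.0734) or 2 (0.142), and H2-Aa in Pax5-KO when Pax5-KO replicate 1 (0.0544) or 2 (0.103) or the first wild-type library (0.0555) was left out. Between the knockouts themselves, Pax5-KO over Ebf1-KO, 0 of 10 genes were called, 3 had an unadjusted p under 0.05 and DESeq2 called 1, H2-DMb2, where 4.1% of all genes tested were called, 2.94% higher and 1.15% lower. H2-DMb2 differed by 2.70 ± 0.77 (adjusted p = 0.0686) and H2-Ob by -2.24 ± 0.74 (adjusted p = 0.139).

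The third comparison gives Ebf1 back to Ebf1-KO cells. Ebf1 lowered Cd74, and 7 of the 10 genes had both Ebf1 libraries below both empty-vector libraries. Cd74 fell by 1.59 on the log2 scale (SE 0.34, adjusted p = 0.0166), and 1 of the 10 genes was called lower and 0 higher, where 2.97% of genes tested were called, 0.763% lower and 2.21% higher. Levels of H2-Aa were 1.2 and 4.31 CPM with Ebf1, against 10.8 and 13 CPM with empty vector, and the adjusted p was 0.587. H2-Ab1, H2-Eb1, Ciita, H2-DMa and H2-Ob also had both libraries lower, with adjusted p from 0.215 to 0.856. The median log2 fold change was -1.36 over the 10 genes and 0.00 over all genes tested. The call of Cd74 was lost without empty-vector replicate 2 (log2 fold change -0.97, adjusted p = 0.33) or Ebf1 replicate 1 (0.137) or 2 (0.123). Dendritic cell markers summed to 23.6 and 26.6 CPM with Ebf1, against 100.3 and 128.0 CPM with empty vector, and macrophage and monocyte markers to 164.0 and 102.6 CPM, against 231.3 and 262.1 CPM. Among them Ccr7 (-2.01 ± 0.46, adjusted p = 0.0268), Adgre1 (-3.05 ± 0.72, 0.0314) and Itgam (-1.94 ± 0.36, 0.00596) were called lower with Ebf1, and the part of such cells in the result was not tested.

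Against wild type, Ebf1-KO cells with Ebf1 had 4 genes called higher and 2 lower, where 11.2% of genes tested were called, 6.94% higher and 4.22% lower. H2-DMa was higher by 3.83 ± 0.81 (adjusted p = 0.00564) and H2-DMb2 by 2.87 ± 0.81 (adjusted p = 0.034). H2-Eb1 had 69 counts, against 2 in wild type, a ratio of 22.7 (6.06 to 191.5; adjusted p = 0.0142), and Ciita 79 counts, against 3, a ratio of 17.4 (5.73 to 86; adjusted p = 0.0477). H2-Ob was lower by -4.34 ± 0.81 (adjusted p = 0.00215) and Cd74 by -1.29 ± 0.34 (adjusted p = 0.0217). Ebf1-KO cells with Ebf1 had 33.1 and 37.2 CPM of Pax5, against 332.8 and 411.9 CPM in wild type. Only H2-Ob kept its call without any 1 of the 4 libraries; without wild type replicate 2 those of H2-Eb1 (adjusted p = 0.135), Cd74 (0.0557), Ciita (0.301), H2-DMa (0.0799) and H2-DMb2 (0.208) were lost, and without Ebf1 replicate 1 or 2 those of Cd74 (0.133 and 0.103), Ciita (0.0757 and 0.172) and H2-DMb2 (0.0678 and 0.131). H2-Eb1 was lost without Ebf1 replicate 2 (0.0949), and Cd74 (0.114) and Ciita (0.0559) without wild type replicate 1.

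In Pax5-KO cells the Ebf1 vector also went with lower class II levels. All 10 log2 fold changes were negative, with a median of -1.83 against -0.04 over all genes tested, and 8 genes had both Ebf1 libraries below both empty-vector libraries. Of the 10 genes 3 were called lower and 0 higher, where 3.6% of genes tested were called, 1.85% lower and 1.75% higher. Cd74 fell by 1.58 (SE 0.34, adjusted p = 0.0188) and H2-Eb1 by 3.98 (SE 0.79, adjusted p = 0.0131) on the log2 scale. Ciita had 0 counts with Ebf1, against 36 with empty vector, and was at least 12.3-fold lower, taking a floor of 3 counts over the group (adjusted p = 0.0438). H2-Oa differed by -1.78 ± 0.56 (adjusted p = 0.0945), H2-DMa by -1.90 ± 0.72 (0.156) and H2-DMb2 by -1.88 ± 0.74 (0.172). These libraries agreed least with each other. Fitted on the 2 groups alone, 0 of the 10 were called, with adjusted p of 0.138 for Cd74, 0.438 for H2-Eb1 and 0.361 for Ciita. Without empty-vector replicate 2 the adjusted p was 0.255 for Cd74, where the fall was 1.08 on the log2 scale, 0.103 for H2-Eb1 and 0.115 for Ciita; Ciita was also lost without any other of the 4 (0.0729 to 0.11). Dendritic cell markers summed to 31.1 and 17.3 CPM with Ebf1, against 67.6 and 96.6 CPM with empty vector, and macrophage and monocyte markers to 198.1 and 144.5 CPM, against 220.9 and 221.5 CPM; their part was not tested.

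For the difference between the Ebf1 effects in Ebf1-KO and Pax5-KO cells edgeR called 0 of the 10, DESeq2 called 0, and 1, Ciita, had an unadjusted p under 0.05, where 0.612% of genes tested were called, 0.577% higher and 0.0344% lower. Ciita was called with no filter on low counts (adjusted p = 0.0349). Without Pax5-KO with Ebf1 replicate 2, which leaves the library with 0 counts for 4 of the genes, 3 were called, H2-Eb1 (adjusted p = 0.0433), H2-DMa (0.00415) and H2-Ob (0.00876), and the sign of H2-Ob changed.

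**Figure D3:**
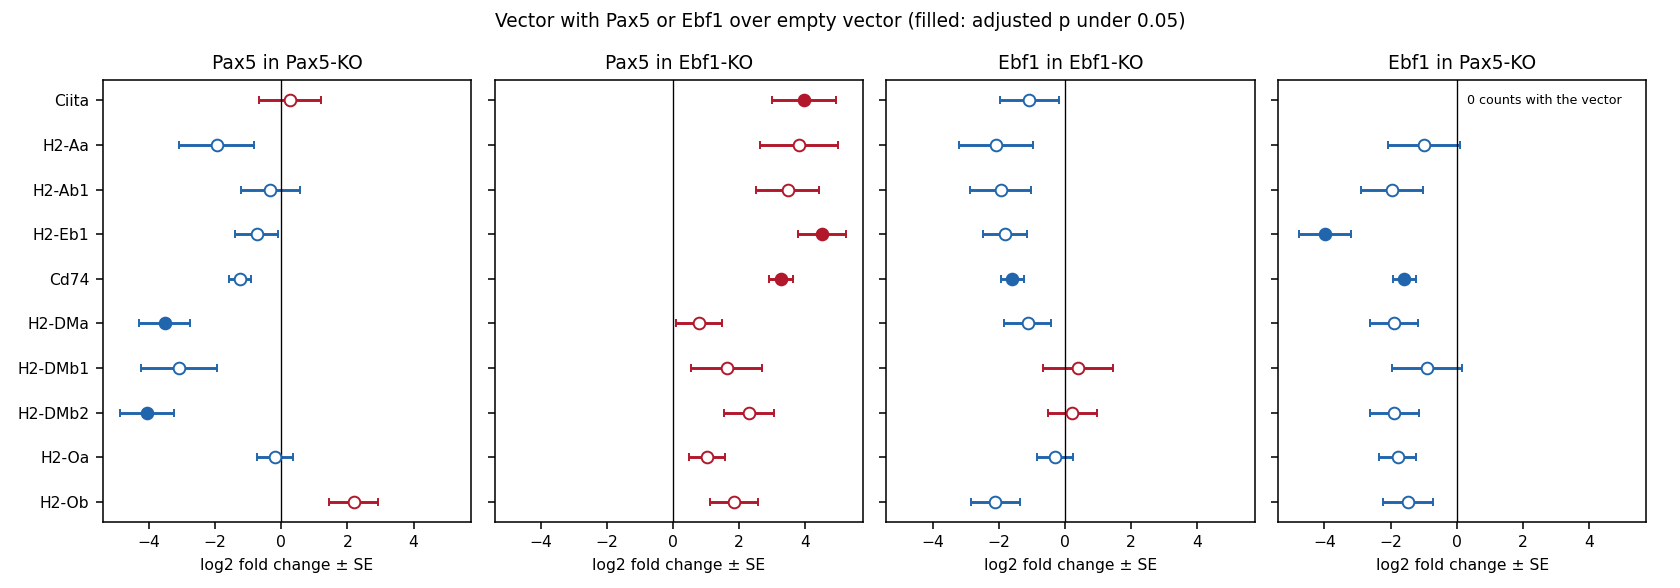
Log2 fold changes (horizontal axis, with SE) of the 10 genes for each vector over empty vector; filled points had an adjusted p under 0.05, and Ciita with Ebf1 in Pax5-KO is written as 0 counts with the vector. Pax5 in Ebf1-KO gives 10 positive values and Ebf1 in Pax5-KO 9 negative ones.

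Pax5 given back to Pax5-KO cells lowered H2-DMa and H2-DMb2. H2-DMa fell by 3.52 (SE 0.77, adjusted p = 0.0163) and H2-DMb2 by 4.07 (SE 0.82, adjusted p = 0.00899) on the log2 scale. Of the 10 genes 2 were called lower and 0 higher, where 4.03% of genes tested were called, 2.4% lower and 1.64% higher, and 7 had both Pax5 libraries below both empty-vector libraries. Cd74 differed by -1.25 ± 0.34 (adjusted p = 0.0514, and 0.0468 with relative log expression scaling), and H2-DMb1 by -3.09 ± 1.15 (adjusted p = 0.193). H2-Ob differed in the other direction, by 2.19 ± 0.74 (adjusted p = 0.141), and was called when the Pax5-KO with Ebf1 libraries were left out (adjusted p = 4.3e-04). The calls of H2-DMa and H2-DMb2 were lost without empty-vector replicate 2 (adjusted p = 0.0944 and 0.0841), Pax5 replicate 1 (0.135 and 0.128) or Pax5 replicate 2 (0.157 and 0.062). Dendritic cell markers summed to 34.7 and 34 CPM with Pax5, against 67.6 and 96.6 CPM with empty vector. Macrophage and monocyte markers summed to 95.5 and 73.4 CPM, against 220.9 and 221.5 CPM. Among them Itgax (-6.51 ± 1.52, adjusted p = 0.0243) and Lyz2 (-1.61 ± 0.38, 0.0267) were called lower with Pax5, and the part of such cells in the result was not tested.

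Against wild type, Pax5-KO cells with Pax5 had 1 gene of the 10 higher and 0 lower, where 7.13% of genes tested were called, 4.82% higher and 2.31% lower. That gene was H2-Eb1, with 106 counts, against 2 in wild type, a ratio of 34.3 (9.27 to 287.1; adjusted p = 0.00684, and 0.0896 without wild type replicate 2). H2-Ob differed by -2.29 ± 0.73 (adjusted p = 0.0797), and was called without the Pax5-KO with Ebf1 libraries (adjusted p = 1.1e-04). H2-DMa, at 4.28 and 4.42 CPM with Pax5 and 2.85 and 1.32 CPM in wild type, had an adjusted p of 0.49.

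The Pax5 vector raised Cd74, H2-Eb1 and Ciita in Ebf1-KO cells and lowered H2-DMa and H2-DMb2 in Pax5-KO cells, and the difference between the 2 effects was tested directly. The Pax5 effect in Pax5-KO minus that in Ebf1-KO was negative for 9 of the 10 genes, with a median of -4.41 on the log2 scale, against 0.00 over all genes tested. Of the 10 genes 4 were called lower and 0 higher, where 3.16% of genes tested were called, 2.43% lower and 0.735% higher. The difference was -4.52 ± 0.49 for Cd74 (adjusted p = 2.4e-04), -5.26 ± 0.95 for H2-Eb1 (0.00781), -6.36 ± 1.11 for H2-DMb2 (0.00617) and -4.31 ± 1.03 for H2-DMa (0.0352). By replicate it was -4.24 and -4.88 for Cd74, and -4.47 and -5.84 for H2-Eb1. H2-Aa differed by -5.78 ± 1.62 (adjusted p = 0.0705), H2-Ab1 by -3.80 ± 1.28 (0.138), H2-DMb1 by -4.71 ± 1.57 (0.133) and Ciita by -3.71 ± 1.31 (0.163). H2-Ob, which was higher with Pax5 in both cells, had an adjusted p of 0.935 for the difference. Cd74 and H2-DMb2 kept their calls without any 1 of the 8 libraries. H2-Eb1 lost its call without Ebf1-KO with empty vector replicate 1 (adjusted p = 0.0563), Ebf1-KO with Pax5 replicate 2 (0.0663) or Pax5-KO with Pax5 replicate 2 (0.0598), and H2-DMa without any 1 of 7 libraries (0.0511 to 0.158), Ebf1-KO with Pax5 replicate 1 being the exception.

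Genes around the class II pathway were read from lists. The 7 factors of the X and Y boxes (Rfx5, Rfxap, Rfxank, Nfya, Nfyb, Nfyc and Creb1), which assemble the platform for CIITA, had 0 calls in each of the comparisons between 2 groups, and their summed level was 613.3 and 601.1 CPM in Ebf1-KO with Pax5, against 548.2 and 536.7 CPM with empty vector. Among 11 genes of the interferon gamma arm and regulators of Ciita, 2 rose with Pax5 in Ebf1-KO and 0 fell. Irf4, a B-lineage interferon regulatory factor, rose by 1.60 ± 0.32 (adjusted p = 0.0108). Irf4 had 210.8 and 218.8 CPM with Pax5, against 61.3 and 80.6 CPM with empty vector, and was highest in wild type, where Ciita was near 0, at 929.4 and 731.0 CPM.

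Of 10 endolysosomal processing genes, 3 rose and 1 fell with Pax5 in Ebf1-KO. March1, a ubiquitin ligase that removes class II and CD86 from the cell surface, had 59 and 53.6 CPM with Pax5, against 3.16 and 3.35 CPM with empty vector (log2 fold change 4.11 ± 0.66, adjusted p = 0.00206). Ifi30, a thiol reductase that opens disulfide bonds of antigens, rose by 1.84 ± 0.47 (adjusted p = 0.0395), and the protease gene Ctsb by 0.85 ± 0.21 (0.033). Ctsl, another cysteine protease, fell by 1.64 (SE 0.31, adjusted p = 0.00649). In Pax5-KO the same vector went with a rise of Ifi30 by 2.07 ± 0.47 (adjusted p = 0.0204) and a fall of Ctsl by 2.95 (SE 0.33, adjusted p = 7.8e-05), while March1 had 4.56 and 4.39 CPM with Pax5, against 2.47 and 1.37 CPM with empty vector, and was not called. The 5 costimulation genes had 0 calls in Ebf1-KO with Pax5 over empty vector; summed, they had 116.8 and 90.6 CPM with Pax5, against 31 and 29.3 CPM with empty vector.

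Of the 11 MHC class I presentation genes, 2 rose with Pax5 in Ebf1-KO, Tapbp by 1.03 ± 0.20 (adjusted p = 0.00812) and H2-K1 by 0.66 ± 0.17 (0.0381). Both were also called lower for the difference of the Pax5 effects, Tapbp at -1.51 ± 0.28 (adjusted p = 0.0086) and H2-K1 at -1.11 ± 0.24 (0.0195). Against wild type, 7 were higher in Ebf1-KO and 10 in Pax5-KO, and 0 were lower in either. Their summed level was 4432.7 and 5437.4 CPM in Ebf1-KO with Pax5, 3134.3 and 3541.1 CPM in Ebf1-KO and 5191.3 and 6030.9 CPM in Pax5-KO, both with empty vector, against 1878.2 and 1710.4 CPM in wild type.

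**Figure D4:**
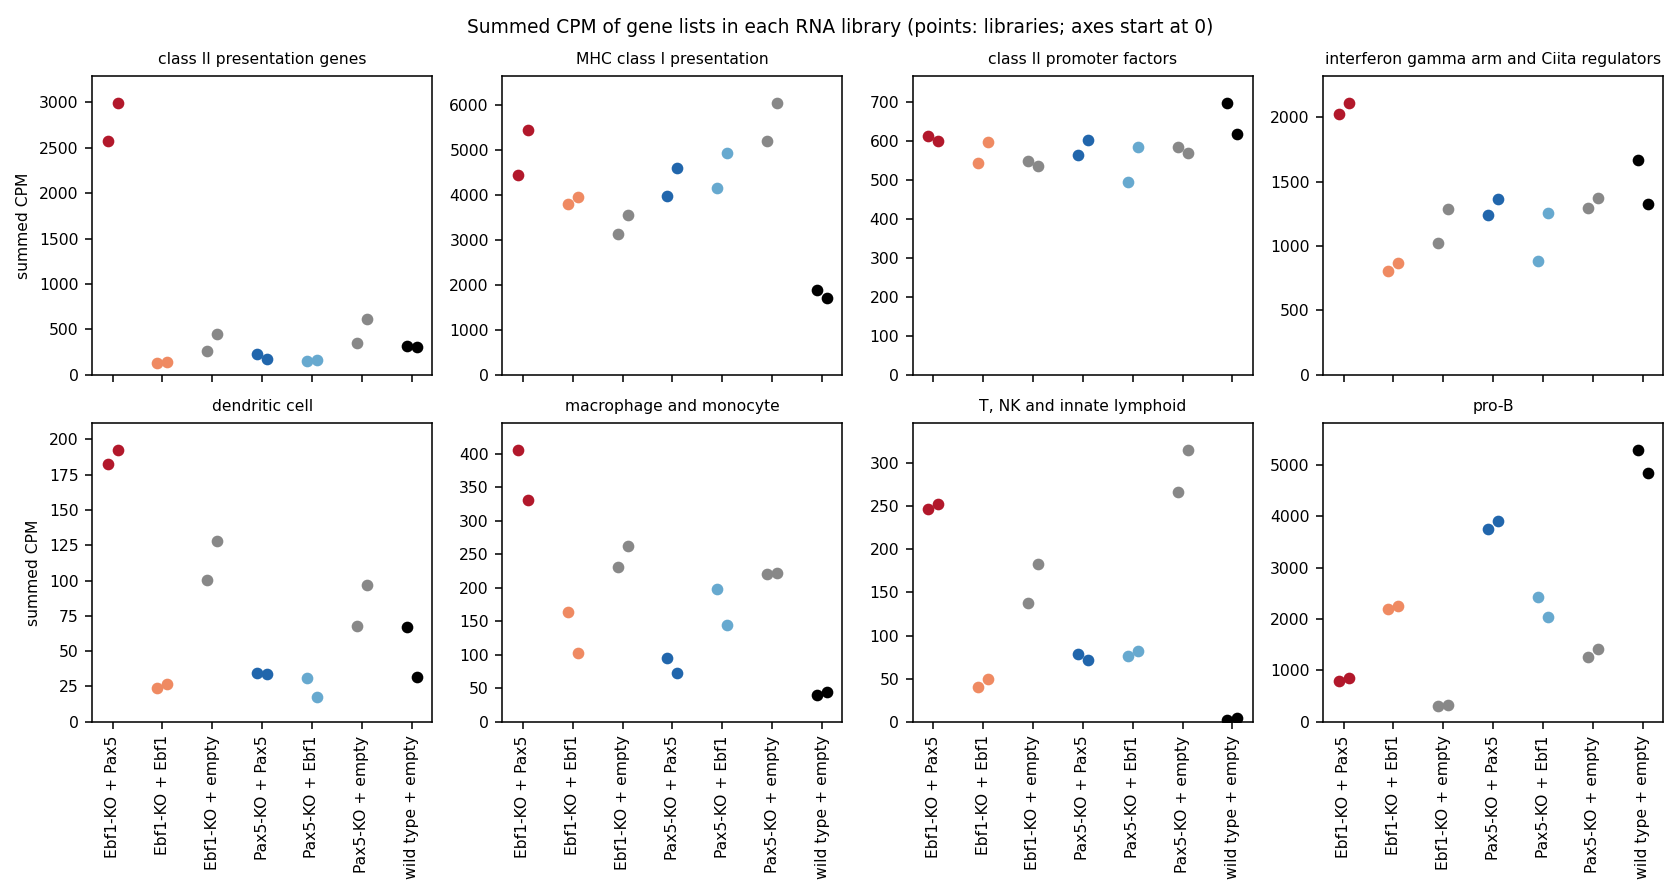
Summed CPM (vertical axis, from 0) of the class II presentation genes and of 7 gene lists in each library, with groups along the horizontal axis. The class II sum reaches 2576.5 and 2990.7 CPM in Ebf1-KO with Pax5, against at most 615.6 CPM in any other library. The sums of dendritic cell and of macrophage markers are also highest there, and that of pro-B markers is highest in wild type. With Pax5 over empty vector in Ebf1-KO, edgeR called 0 of the tested dendritic cell or macrophage markers. With Pax5 over empty vector in Pax5-KO it called 1 of each list lower and 0 higher.

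Summed levels of markers of other presenting cells differed between these groups. The 9 dendritic cell markers summed to 182.4 and 192.4 CPM in Ebf1-KO with Pax5, 100.3 and 128.0 CPM in Ebf1-KO with empty vector, and 67.1 and 31.4 CPM in wild type. Itgax had 39.3 and 55.9 CPM in Ebf1-KO with Pax5, and Siglech 52.9 and 47.3 CPM. Both were called higher in Ebf1-KO with empty vector than in wild type, where neither had over 2 counts (adjusted p = 0.00273 for Itgax and 0.00226 for Siglech). Of the 9 markers 5 (Zbtb46, Xcr1, Clec9a, Clec10a and Cd209a) were under 2 CPM in every library. Ccr7 alone of the 9 had counts in all 14 libraries. It reached 88.8 CPM in Ebf1-KO with Pax5 replicate 2, where the 9 summed to 192.4 CPM, so the sums lean on it. The 10 macrophage and monocyte markers summed to 405.8 and 331.3 CPM in Ebf1-KO with Pax5, 231.3 and 262.1 CPM in Ebf1-KO with empty vector, and 40.5 and 43.8 CPM in wild type, and C1qa had 0 counts in all 14 libraries. With Pax5 over empty vector in Ebf1-KO, 0 of 7 tested dendritic cell markers and 0 of 9 tested macrophage markers were called in either direction by edgeR. Their median log2 fold changes were -0.04 and 0.40, against 2.77 over the 10 class II genes. With Pax5 in Pax5-KO, 1 of the 7 and 1 of the 9 were called lower and 0 higher, namely Itgax and Lyz2. For the difference of the Pax5 effects the same 2 were called lower and 0 higher. Itgax was at -8.00 ± 1.86 (adjusted p = 0.0309) and Lyz2 at -2.21 ± 0.53 (0.0368). In Ebf1-KO over wild type, 2 of the 7 and 4 of the 9 were called higher. So were 7 of 7 tested T, NK and innate lymphoid markers. Of 5 mature B cell markers, 1 rose and 0 fell with Pax5 in Ebf1-KO, and 0 rose and 2 fell in Ebf1-KO over wild type. Of the 7 stroma markers 6 were under 2 CPM in every library, the exception being Pdgfrb, at 36.1 and 28.2 CPM in Ebf1-KO with Pax5 and 58.1 and 63.3 CPM in Ebf1-KO with empty vector. The part of these cell type markers in the class II levels was not tested, and in bulk RNA more cells of a type and more RNA per cell cannot be told apart.

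The genes with the profile most like that of 3 members were found by Pearson correlation of log2 CPM over the 14 libraries, which fall into 7 pairs of replicates, so r is only a description. Outside the 10 genes, closest to H2-Aa were Irak2 (r = 0.954), Furin (0.924), Tspyl1 (0.921), P2ry12 (0.915) and Igsf3 (0.915). Among the 10, H2-Eb1 had an r of 0.93 with H2-Aa, above all of these but Irak2, H2-DMa 0.90, H2-Oa 0.33 and H2-Ob 0.34. Closest to Cd74 were Mir5107 (0.987), which lies within Cd74 and can share its reads, Lbh (0.949), Prex1 (0.934), Gucy2c (0.926) and Sp110 (0.923). Closest to Ciita were Plek (0.922), Wfdc17 (0.918), Flna (0.913), Arhgap39 (0.907) and Il17d (0.906), and H2-Eb1, among the 10, was above these at 0.93.

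EBF1 peaks of line 230-238 were set beside the genes, from the authors' list of 17230 peaks, each 320 bases wide. Within 100 kb of a gene start or inside the gene lay 38 distinct peaks, of which 23 were on chromosome 17 and are shared between neighbouring members. A peak centre lay within 1 kb of the start of 5 of the 10 genes (Ciita, H2-DMa, H2-DMb1, H2-DMb2 and H2-Oa), against 27.4% of the 14550 genes tested. Within 10 kb it was 7 of 10, against 45.9%, and within 100 kb 10 of 10, against 85%. The peak nearest to the start of a peptide-binding chain gene was farther off: 4687 bases inside H2-Ab1, 19857 bases downstream of the H2-Aa start and 19855 bases downstream of the H2-Eb1 start. The H2-Ab1 and H2-Aa distances are to the same peak. H2-Ob, a chain of H2-DO, had its nearest peak at -20082 bases, the farthest of the 10.

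**Figure D5:**
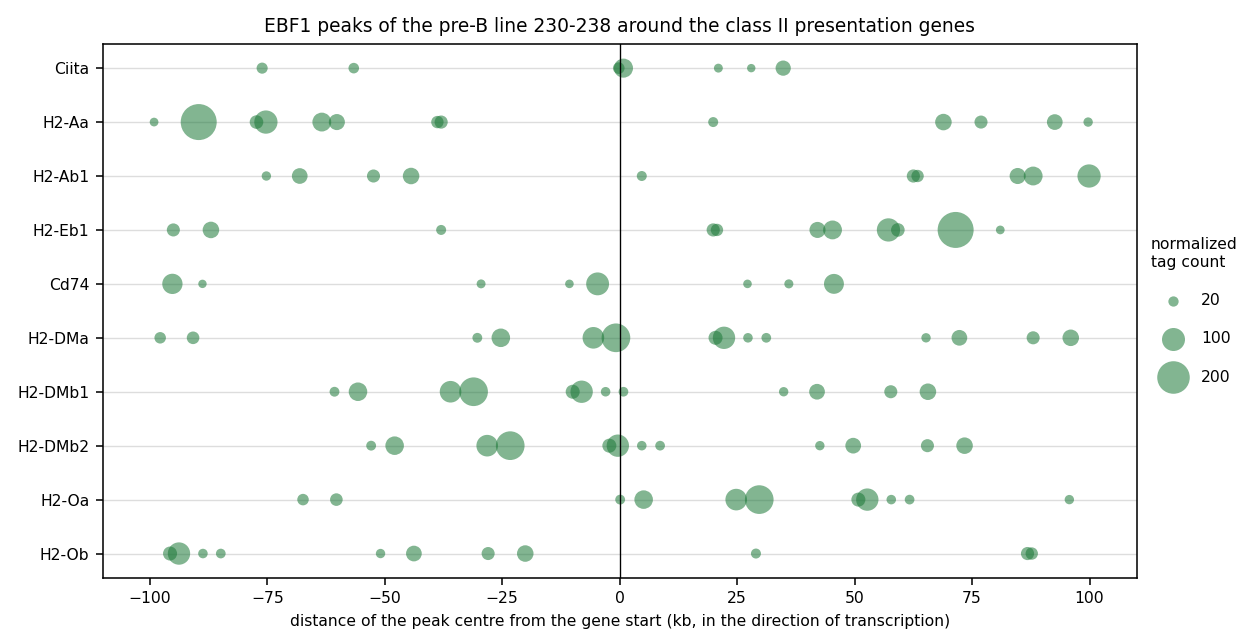
EBF1 peaks around each gene, by distance of the peak centre from the gene start in kb (horizontal axis, in the direction of transcription); the area of a point is the normalized tag count, and peaks on chromosome 17 appear in several rows. Ciita, H2-DMa, H2-DMb1, H2-DMb2 and H2-Oa have a peak within 1 kb of their start.

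The strongest of the peaks near a start, by the authors' normalized tag count, lay at -763 bases from the H2-DMa start, with 155.4 tags and a 92.28-fold enrichment over control; the oppositely transcribed gene Brd2 starts next to H2-DMa, so the peak cannot be given to either. The H2-DMb2 peak had its centre at -353 bases from the start used for counting, chr17:34145416, with 94.3 tags and a 35.65-fold enrichment. That start lies downstream of the whole promoter printed below, which was cut around a different start of the gene. Ciita had one peak at -156 bases (25.5 tags) and one 763 bases after its start (68.8 tags). The list's median was 25.5 tags. Cd74 had its nearest peak at -4693 bases (98.8 tags). The H2-DMb2 promoter is printed because its peak covers 225 of its 300 bases; capitals mark 2 matches to CCCNNGGG, a palindromic form of the EBF1 motif that 13.7% of all promoters hold and no other matched member did.

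H2-DMb2 promoter: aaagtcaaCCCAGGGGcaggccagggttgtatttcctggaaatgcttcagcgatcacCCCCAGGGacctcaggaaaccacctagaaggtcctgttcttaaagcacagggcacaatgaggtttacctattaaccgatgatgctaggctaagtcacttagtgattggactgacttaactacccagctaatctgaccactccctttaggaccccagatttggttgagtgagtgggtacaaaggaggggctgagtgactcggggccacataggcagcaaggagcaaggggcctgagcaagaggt

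It runs along the plus strand at chr17:34144999-34145298, and the peak at chr17:34144903-34145223 is from the same build. H2-DMa and H2-DMb2, whose starts have the strongest of these peaks, were the 2 genes called lower with Pax5 in Pax5-KO. Both were higher in each knockout than in wild type, and so were H2-Aa and H2-Eb1, whose nearest peaks lay 19857 and 19855 bases off. Ciita, H2-DMb1 and H2-Oa, each with a peak within 1 kb of the start, were not called by edgeR with Pax5 in Pax5-KO. EBF1 binding was measured in another cell line, and no relation between peaks and levels was tested.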

How the data were processed

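RNA levels came from 14 libraries in 7 groups of 2. The deposited counts are raw reads per gene over exons, made by the authors with HOMER on mm10, per the file headers; STAR 2.6.0b-1 and HOMER 4.8 stand in the submitters' processing notes. The authors deposited 1 EBF1 peak list over 2 ChIP samples and their input, with a normalized tag count (signal), a peak score and a fold enrichment ratio over control for each peak, per the file headers. Contact maps of the series were not used here.

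Counts were tested with edgeR 4.0.16 in R 4.3.3 (TMM scaling, its filter on low counts, quasi-likelihood test, Benjamini-Hochberg adjustment, threshold 0.05) in 1 fit of 14550 genes over 14 libraries; the procedure was tested on simulated data. CPM were 0.435 at the filter's minimum of 10 counts. All 10 members were named in every comparison, with up to 4 called genes of each list by size of change and the 5 genes most alike to 3 members. Single fold changes are given where the adjusted p was under 0.2. Their SE was worked back from the test, as the absolute log2 fold change divided by the square root of its F statistic. Members and the 11 lists were chosen with earlier results of these data known. Not every called gene of the lists is reported here. Intervals at 95% and the floor of 3 counts cover counting error only. An unnumbered column, of Pax5-KO cells with empty vector, was used as replicate 1. Alternatives were relative log expression (RLE) and upper-quartile scaling, no filter, DESeq2 1.42.0, a replicate block, each library left out, other sets of groups in the fit, and other peak windows and scores.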

Additional observations from a re-analysis of the deposited data

Results flagged for a closer look

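For 4 of the 10 genes the effect of the Pax5 vector differed between the knockouts, by edgeR's test of the difference itself (Pax5-KO minus Ebf1-KO, log2 scale). The difference was -4.52 for Cd74, -5.26 for H2-Eb1, -6.36 for H2-DMb2 and -4.31 for H2-DMa. In Cd74 the vector's own log2 fold change was -1.25 in Pax5-KO and 3.26 in Ebf1-KO, and in H2-DMb2 it was -4.07 in Pax5-KO and 2.29 in Ebf1-KO, of which -1.25 and 2.29 did not pass the test. Dendritic cell markers summed to 34.7 and 34 CPM with Pax5 and 67.6 and 96.6 CPM with empty vector in Pax5-KO, and to 182.4 and 192.4 CPM with Pax5 and 100.3 and 128.0 CPM with empty vector in Ebf1-KO. For the same difference edgeR also called the dendritic cell marker Itgax (-8.00) and the macrophage marker Lyz2 (-2.21) lower. The part of these markers in the differences was not tested.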

How the results depend on the processing

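Over the values of all 10 genes in 11 comparisons, 281 alternative values of called results kept their call, 62 lost it and 0 changed sign; of values not called, 804 stayed so, 89 gained a call and 33 changed sign. Members called under no filter on low counts numbered 6 for Ebf1 in Ebf1-KO (1 as reported), 7 for Pax5 in Ebf1-KO (3), 8 for Ebf1 in Pax5-KO (3), 5 for Pax5 in Pax5-KO (2), 4 for Pax5-KO with Pax5 over wild type (1), 3 for Pax5-KO over Ebf1-KO (0), 1 for the difference of the Ebf1 effects (0) and 7 for that of the Pax5 effects (4). DESeq2 called 2 for Ebf1 in Ebf1-KO, 4 for Pax5 in Pax5-KO, 2 for Pax5-KO with Pax5 over wild type and 1 for Pax5-KO over Ebf1-KO. The next alternatives, on which groups enter the fit, were chosen after seeing the data. Leaving Pax5-KO with Ebf1 out gave 2 for Ebf1 in Ebf1-KO, 7 for Pax5 in Ebf1-KO, 4 for Pax5 in Pax5-KO, 2 for Pax5-KO with Pax5 over wild type and 2 for Pax5-KO over Ebf1-KO. Fitting only the groups compared gave 3, 7, 4, 2 and 2 for these, 0 for Ebf1 in Pax5-KO and 3 for Ebf1-KO with Ebf1 over wild type (6 as reported). The cause of these moves was not tested. In the tally above and in the counts of members that follow, a library was left out only where its group was compared. Fits without a library of another group enter only the counts of all genes called.

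Leaving out 1 library, where the lone library is assumed to vary like the other groups, gave 2 to 5 members called in Ebf1-KO over wild type, 4 to 5 in Pax5-KO over wild type, 0 to 1 for Ebf1 and 1 to 2 for Pax5 in Ebf1-KO, 0 to 7 for Ebf1 and 0 to 3 for Pax5 in Pax5-KO. It gave 1 to 4 for Ebf1-KO with Ebf1 and 0 to 2 for Pax5-KO with Pax5 over wild type, 0 for Pax5-KO over Ebf1-KO, 0 to 3 for the difference of the Ebf1 effects and 2 to 4 for that of the Pax5 effects. Correlations of the deviations of same-numbered libraries were -0.059 to 0.013 in pairs of groups with wild type and 0.076 to 0.236 in the others, so not every pair was over 0.1 and the numbers were not taken as pairing; with the replicate block 6, 5, 1, 4, 3, 3, 6, 1, 0, 0 and 4 members were called, in the order Ebf1-KO and Pax5-KO over wild type, Ebf1 and Pax5 in Ebf1-KO, Ebf1 and Pax5 in Pax5-KO, Ebf1-KO with Ebf1 and Pax5-KO with Pax5 over wild type, Pax5-KO over Ebf1-KO, and the differences of the Ebf1 and the Pax5 effects. The block added the calls of H2-Ob in Ebf1-KO over wild type (adjusted p = 0.0447), H2-Ab1 for Pax5 in Ebf1-KO (0.0332) and Cd74 for Pax5 in Pax5-KO (0.0428). EBF1 peaks near the genes numbered 38, and 22 at or above the median score.

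Leaving out any 1 of the 14 libraries, also one of a group outside the comparison, gave these lowest and highest counts of all genes called. The counts, with that of the reported fit in brackets, were 1296 to 2843 (2134) for Ebf1-KO over wild type, 1012 to 2778 (1986) for Pax5-KO over wild type, 204 to 652 (432) for Ebf1 in Ebf1-KO and 159 to 1041 (594) for Pax5 in Ebf1-KO. They were 125 to 2228 (524) for Ebf1 in Pax5-KO, 222 to 1006 (587) for Pax5 in Pax5-KO, 879 to 2258 (1624) for Ebf1-KO with Ebf1 over wild type and 433 to 1617 (1038) for Pax5-KO with Pax5 over wild type, and 303 to 903 (596) for Pax5-KO over Ebf1-KO, 48 to 685 (89) for the difference of the Ebf1 effects and 133 to 908 (460) for that of the Pax5 effects. The counts of 125 and of 685 came without replicate 2 of Pax5-KO with empty vector and of Pax5-KO with Ebf1. Apart from that, counts of all genes called moved by over 1.5 times as follows. For Ebf1 in Ebf1-KO, 432 became 711 with no filter, 722 with DESeq2 and 955 with only the groups compared. For Pax5 in Ebf1-KO, 594 became 1002 with no filter, 1243 with DESeq2, 916 with the replicate block and 1017 without Pax5-KO with Ebf1. For Ebf1 in Pax5-KO, 524 became 1230, 1590 and, with the block, 821, and 67 with only the groups compared. For Pax5 in Pax5-KO, 587 became 1043 and 1153 with no filter and DESeq2, 980 without Pax5-KO with Ebf1 and 1066 with only the groups compared. The last setting gave 2472 for Ebf1-KO with Ebf1 over wild type (1624), 1802 for Pax5-KO with Pax5 over wild type (1038; 1604 with no filter and 1791 with DESeq2) and 1153 for Pax5-KO over Ebf1-KO (596; 978 and 1035). The difference of the Ebf1 effects had 89, then 269 and 247, and that of the Pax5 effects 460, then 940 and 1166, 737 with the block, 894 without Pax5-KO with Ebf1 and 859 with only the groups compared.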
